A study of Mus musculus with 8 samples.

Results

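The receptors for BAFF and APRIL (Tnfrsf13b, Tnfrsf13c and Tnfrsf17), Cd40, the pair Cd27 and Cd70, the TNF receptors Tnfrsf1a and Tnfrsf1b, and the adaptors Traf2 and Traf3 were followed in splenic B cells of mice prone to leukaemia and lymphoma. These 10 genes were chosen by name, and all 10 were found among the 24902 gene symbols of the count matrix. The samples were pan-B cells isolated from the spleen at early removal criteria (ERC), the humane endpoint, and were measured by bulk RNA-seq in 4 Eµ-PRMT5 mice (transgene Eµ-hPRMT5), 3 Eµ-PRMT5/TCL1 mice (Eµ-hPRMT5/hTCL1) and 1 Eµ-TCL1 mouse (Eµ-hTCL1). Every mouse carried a human transgene, the strain of all 8 is labelled C57BL/6N, and wild-type mice were not analysed here. Human PRMT5, an enzyme that dimethylates arginines in proteins, was placed under a VH promoter and the IgH-Eµ enhancer, which drive expression in immature and mature B cells. The double-transgenic mice came from a cross of Eµ-PRMT5 mice with Eµ-TCL1 mice, a standard model of chronic lymphocytic leukaemia (CLL). The age and sex of each mouse are not given, and the sample name of Eµ-PRMT5 mouse 2 is one that the methods use for a founder animal.

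Receptors of the TNF superfamily carry signals for survival and differentiation into B cells. BAFF (gene Tnfsf13b) binds BAFF-R (Tnfrsf13c), TACI (Tnfrsf13b) and BCMA (Tnfrsf17), APRIL (Tnfsf13) binds TACI and BCMA, and CD40 receives CD40 ligand from T cells. Without a ligand, TRAF3 and TRAF2 keep the kinase NIK (Map3k14) at a low level, and engagement of BAFF-R or CD40 removes this brake, so that the p100 product of Nfkb2 is processed into a partner of RelB. TNF receptors lead mainly to the canonical NF-kB pathway, which switches on its own inhibitors, among them Nfkbia and Tnfaip3.

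The libraries held between 3356297 counts on genes in the Eµ-TCL1 mouse and 10252426 in Eµ-PRMT5 mouse 4. Levels are given as CPM, counts relative to the library size after TMM scaling. B cell genes were present in every library, with a summed level of 7 markers from 2071 CPM in Eµ-PRMT5 mouse 4 to 8932 CPM in Eµ-PRMT5/TCL1 mouse 3. Markers of other cells were also unequal, and the summed level of 10 neutrophil genes ran from 427 CPM in Eµ-PRMT5 mouse 3 to 9270 CPM in Eµ-PRMT5/TCL1 mouse 1. In bulk samples, fewer cells of a type and less RNA per cell cannot be told apart.

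No gene of the 10 was called between genotypes. Of the 10, 9 had a value in all 8 libraries and passed the expression filter, while Cd70 had a value in 4 libraries and was not tested. With a threshold of 0.05 on the adjusted p and of 4 on the fold, by edgeR's quasi-likelihood test with Benjamini-Hochberg adjustment, 0 of the 9 genes were called in any of the 3 comparisons, beside 0.0% of the 13173 genes tested in each. BCMA was the single member at an unadjusted p under 0.05, with a lower level in the Eµ-PRMT5 and the Eµ-PRMT5/TCL1 mice than in the Eµ-TCL1 mouse, and it did not pass the adjustment.

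**Figure D1:**
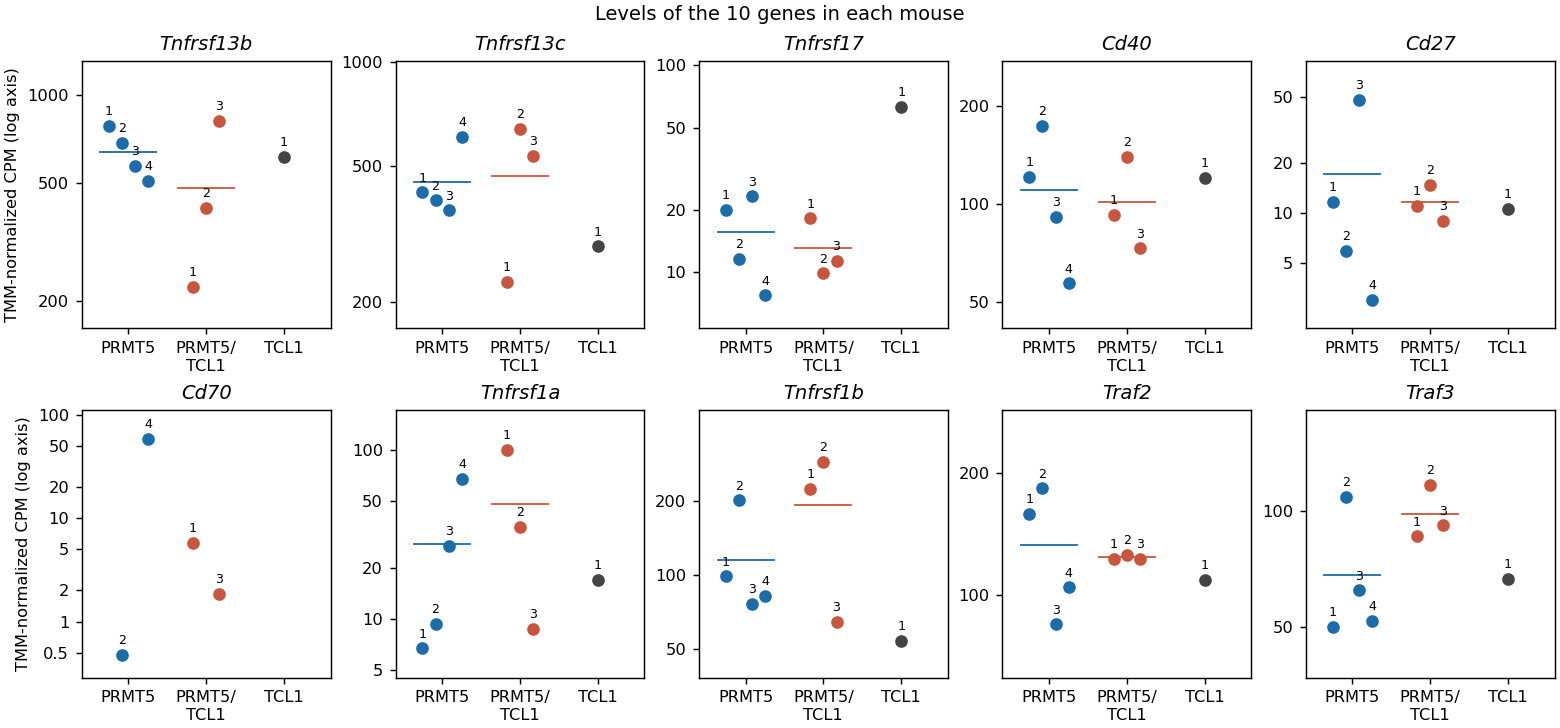
Level of each of the 10 genes in every mouse, in TMM-scaled CPM on a log axis, by genotype (4 mice with PRMT5 alone, 3 with both transgenes, 1 with TCL1 alone); points are mice, numbers are replicate numbers and horizontal bars are group means. The Eµ-PRMT5 and Eµ-PRMT5/TCL1 mice overlap for all 9 tested genes, and the Eµ-TCL1 mouse lies above the 7 others for Tnfrsf17 and below them for Tnfrsf1b.

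TACI and BAFF-R were the most abundant of these genes, with means over the mice of 203.5 and 212 CPM per kilobase of exon. Tnfrsf13b, the gene of TACI, lies on the plus strand of chromosome 11 of GRCm38 from 61126755 to 61149372. It measured 785, 684, 574 and 509 CPM for Eµ-PRMT5 mice 1 to 4, 223, 414 and 813 CPM for Eµ-PRMT5/TCL1 mice 1 to 3 and, for the Eµ-TCL1 mouse, 615 CPM. Both the lowest and the highest value came from Eµ-PRMT5/TCL1 mice, so this genotype spanned the whole range. The means were 638 ± 121 CPM (SD, n = 4) and 483 ± 301 CPM (SD, n = 3), a log2 fold change of -0.40 for Eµ-PRMT5/TCL1 against Eµ-PRMT5 (standard error, SE, 0.44; adjusted p = 1 in edgeR's quasi-likelihood test). It was -1.002 without Eµ-PRMT5/TCL1 mouse 3 and -0.057 without Eµ-PRMT5/TCL1 mouse 1.

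Tnfrsf13c encodes BAFF-R, through which mature B cells survive on BAFF, and lies on the minus strand of chromosome 15 from 82221743 to 82224369. Its levels were 417, 396, 370.0 and 605 CPM for Eµ-PRMT5 mice, 229, 638 and 532 CPM for Eµ-PRMT5/TCL1 mice and, for the Eµ-TCL1 mouse, 291 CPM. Eµ-PRMT5/TCL1 mouse 1 was the lowest for BAFF-R as it was for TACI, while the highest was mouse 2 of that genotype, and the groups overlapped. The group means were 447 ± 107 CPM (SD, n = 4) and 467 ± 212 CPM (SD, n = 3), with a log2 fold change of 0.06 (SE 0.40, adjusted p = 1 in edgeR's quasi-likelihood test). The interval of 2 standard errors on either side ran from -0.75 to 0.87 on the log2 scale.

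The balance of TACI and BAFF-R differed between mice of each genotype. Per kilobase of exon, the ratio of TACI to BAFF-R CPM was 1.36, 1.25, 1.12 and 0.608 in the Eµ-PRMT5 mice, 0.704, 0.468 and 1.10 in the Eµ-PRMT5/TCL1 mice and, for the Eµ-TCL1 mouse, 1.53. Eµ-PRMT5 mouse 4 and Eµ-PRMT5/TCL1 mice 1 and 2 had more BAFF-R than TACI, and the other mice had more TACI. The same mice, Eµ-PRMT5 mouse 4 and Eµ-PRMT5/TCL1 mice 1 and 2, also held the highest summed levels of neutrophil genes, at 5404, 9270 and 5175 CPM against 427 to 2703 CPM in the other mice. Their sums of 10 macrophage and monocyte genes were likewise the highest, at 3834, 7411 and 2795 CPM against 1019 to 1316 CPM. The part of these other transcripts in the ratio was not tested.

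BCMA stood out in the Eµ-TCL1 mouse. Tnfrsf17 encodes BCMA, a receptor of plasma cells and plasmablasts, and lies on the plus strand of chromosome 16 from 11313812 to 11320074. It measured 20.1, 11.6, 23.3 and 7.73 CPM for Eµ-PRMT5 mice, 18.2, 9.87 and 11.4 CPM for Eµ-PRMT5/TCL1 mice and, for the Eµ-TCL1 mouse, 63.0 CPM. The Eµ-TCL1 mouse was above the 7 others, as it was for 21.3% of all tested genes.

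The Eµ-PRMT5 mean of BCMA was 15.7 ± 7.24 CPM (SD, n = 4), and the log2 fold change of Eµ-PRMT5 against the Eµ-TCL1 mouse was -2.01 (SE 0.63), with an unadjusted p of 0.0077 and an adjusted p of 0.709 in edgeR's quasi-likelihood test. The Eµ-PRMT5/TCL1 mean was 13.2 ± 4.44 CPM (SD, n = 3), with a log2 fold change of -2.26 against the same mouse (SE 0.67), an unadjusted p of 0.00533 and an adjusted p of 0.778 in the same test. These comparisons share the Eµ-TCL1 mouse, and with 1 mouse the test asks whether it stands beyond the variation of the groups with replicates and does not compare the genotypes. Among all tested genes, 4.82% were lower in the Eµ-PRMT5 mice and 4.33% were lower in the Eµ-PRMT5/TCL1 mice at an unadjusted p under 0.05. The counts behind the BCMA values ran from 67 to 233 per library.

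The summed plasma cell markers were not highest where BCMA was. Prdm1, which encodes the plasma cell regulator Blimp-1, was also highest in the Eµ-TCL1 mouse, at 210 CPM against 29.5 to 95.2 CPM in the others. Jchain, which joins the chains of secreted IgM and IgA, was at 156 CPM in the Eµ-TCL1 mouse and between 29.2 and 3057 CPM in the others, with its highest level in Eµ-PRMT5 mouse 1. The summed level of the 6 plasma cell markers was 2478 CPM in the Eµ-TCL1 mouse, 1232 to 6033 CPM for Eµ-PRMT5 mice and 771 to 3475 CPM for Eµ-PRMT5/TCL1 mice. Of these 6 markers, 1 was highest in the Eµ-TCL1 mouse, none of the 6 was at 0 in any library, and their part in the level of BCMA was not tested.

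CD40 varied more within the Eµ-PRMT5 group than between the genotypes. Cd40, the receptor for T cell help, lies on the plus strand of chromosome 2 from 165055627 to 165072948. It measured 121, 173, 91.0 and 57.0 CPM for Eµ-PRMT5 mice, 92.3, 139 and 73.0 CPM for Eµ-PRMT5/TCL1 mice and, for the Eµ-TCL1 mouse, 120 CPM. The highest and the lowest value both came from Eµ-PRMT5 mice, in mouse 2 and mouse 4, and the other genotypes lay between them. The means were 110.5 ± 49.2 CPM (SD, n = 4) and 101.5 ± 34.0 CPM (SD, n = 3), a log2 fold change of -0.12 (SE 0.41, adjusted p = 1 in edgeR's quasi-likelihood test). Eµ-PRMT5 mouse 4 also had the lowest level of 5 of the 7 B cell markers, and the part of this in the low CD40 value was not tested.

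The genes whose levels followed CD40 most closely over the 8 mice were Nr4a3, an immediate early orphan nuclear receptor, Gng4, a G protein gamma subunit, and Abtb2. Pearson's r of log2 CPM with Cd40 was 0.986 for Nr4a3, 0.973 for Gng4 and 0.967 for Abtb2, and Spearman's rho was 0.952, 0.976 and 1. With the 2 mice farthest from the Cd40 median left out, r was 0.97, 0.92 and 0.936. Nr4a3 was at 64.3 CPM in Eµ-PRMT5 mouse 2, where Cd40 was highest, and at 3.11 CPM in Eµ-PRMT5 mouse 4, where Cd40 was lowest. These are the highest values among 13173 genes over 8 mice that share their library scaling, and they are a description with no test.

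For TACI the closest gene was Cep41 (r = 0.956, rho = 0.905), a centrosomal protein gene, followed by the DNA repair glycosylase gene Ogg1 (r = 0.934) and Gm16150 (r = 0.923). With the 2 farthest mice likewise left out, r fell to 0.82, 0.532 and 0.632, so these relations rested in part on those mice. For BAFF-R the closest genes were Pwp1 (r = 0.951), Trmt2b (r = 0.948), a tRNA methyltransferase gene, and Gm12657 (r = 0.946), and without 2 mice r was 0.969, 0.971 and 0.874. Each of these r values was likewise the highest among all tested genes, over the same 8 mice.

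CD27 was highest in Eµ-PRMT5 mouse 3, whose library holds no value for its ligand CD70. Among the 4 libraries with a value, CD70 was highest in Eµ-PRMT5 mouse 4. Cd27, a costimulatory receptor of T cells, NK cells and memory B cells, lies on the minus strand of chromosome 6 from 125232622 to 125237010. It measured 11.6, 5.86, 47.6 and 3.00 CPM for Eµ-PRMT5 mice, 10.98, 14.7 and 8.91 CPM for Eµ-PRMT5/TCL1 mice and, for the Eµ-TCL1 mouse, 10.5 CPM. Mouse 3 was high and mouse 4 low, so the Eµ-PRMT5 group enclosed all other values. The means were 17.02 ± 20.7 CPM (SD, n = 4) and 11.5 ± 2.95 CPM (SD, n = 3), a log2 fold change of -0.55 (SE 0.79, adjusted p = 1 in edgeR's quasi-likelihood test). The counts behind these values were 26 to 209 per library, and 5.54% of the exon bases of Cd27 are shared with Mir8113 on the same strand.

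The library with the high Cd27 value was also the highest for most NK cell genes and several T cell genes. In Eµ-PRMT5 mouse 3, the T cell receptor complex gene Cd3d was at 44.7 CPM against 2.15 to 13.2 CPM in the others, and the cytotoxic granule gene Nkg7 was at 279 CPM against 2.43 to 55.7 CPM. This mouse was highest for 5 of the 6 NK cell genes, whose summed level was 389 CPM there and 25.2 to 70.5 CPM elsewhere. It was also highest for 4 of the 8 T cell genes, whose summed level was 1057 CPM there and 449 to 1246 CPM elsewhere. The highest T cell sum, in Eµ-PRMT5/TCL1 mouse 2, was mostly Cd2 (524 CPM) and Lck (667 CPM). In that mouse Cd3d was at 2.43 CPM and Cd8a at 1.00 CPM, against 58.4 CPM of Cd8a in Eµ-PRMT5 mouse 3. Without Eµ-PRMT5 mouse 3 the log2 fold change of Cd27 between Eµ-PRMT5/TCL1 and Eµ-PRMT5 turned from -0.55 to 0.77. The part of T and NK cells in the Cd27 level was not tested.

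Cd70, whose product on activated lymphocytes engages CD27, lies on the minus strand of chromosome 17 from 57145997 to 57149777. It had 506 counts in Eµ-PRMT5 mouse 4 (58.3 CPM), 35 counts in Eµ-PRMT5/TCL1 mouse 1 (5.74 CPM), 12 counts in Eµ-PRMT5/TCL1 mouse 3 (1.84 CPM) and 3 counts in Eµ-PRMT5 mouse 2 (0.475 CPM). The other 4 libraries, including the Eµ-TCL1 mouse and Eµ-PRMT5 mouse 3, where Cd27 was highest, hold no value for it. The meaning of a missing value is not stated, so it was not read as 0. Per kilobase of exon, Cd70 reached 69.3 CPM in Eµ-PRMT5 mouse 4, above Cd40 in the same library at 16.7 CPM. That mouse had the lowest Cd27 and the lowest Cd40 of the 8.

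The TNF receptors varied widely between mice. Tnfrsf1a encodes TNF receptor 1, which is found on most cell types, and lies on the plus strand of chromosome 6 from 125349362 to 125362484. It measured 6.70, 9.34, 26.9 and 67.5 CPM for Eµ-PRMT5 mice, 99.8, 35.0 and 8.76 CPM for Eµ-PRMT5/TCL1 mice and, for the Eµ-TCL1 mouse, 17.03 CPM. High and low values occurred in both replicated groups, and the Eµ-TCL1 mouse lay between them. The means were 27.6 ± 28.0 CPM (SD, n = 4) and 47.9 ± 46.9 CPM (SD, n = 3), a log2 fold change of 0.79 (SE 0.82, adjusted p = 1 in edgeR's quasi-likelihood test).

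The size of the Tnfrsf1a difference rested on single mice. Without Eµ-PRMT5 mouse 4 the log2 fold change was 1.75, with an unadjusted p of 0.0454 and an adjusted p of 0.846 in edgeR's quasi-likelihood test, and without Eµ-PRMT5/TCL1 mouse 1 it was -0.34. These mice had the highest Tnfrsf1a levels, and they also had the highest summed levels of 10 macrophage and monocyte genes, at 3834 and 7411 CPM against 1019 to 2795 CPM in the others, and of neutrophil genes, at 5404 and 9270 CPM. Lyz2, a lysozyme gene of myeloid cells, made up most of these 2 macrophage sums. It was at 2865 and 6224 CPM in these mice against 708 to 2092 CPM in the others. Of the 10 macrophage genes, 3 were highest in Eµ-PRMT5 mouse 4 and 4 in Eµ-PRMT5/TCL1 mouse 1. C1qb was at 316 and 29.7 CPM in these mice, Adgre1 was highest in Eµ-PRMT5 mouse 2 and Vcam1 in Eµ-PRMT5 mouse 3. Among the 10 macrophage genes, Itgam was listed at 0 in Eµ-PRMT5 mouse 3 and was between 0.429 and 1.89 CPM in the other libraries. The part of myeloid cells in the Tnfrsf1a level was not tested.

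**Figure D2:**
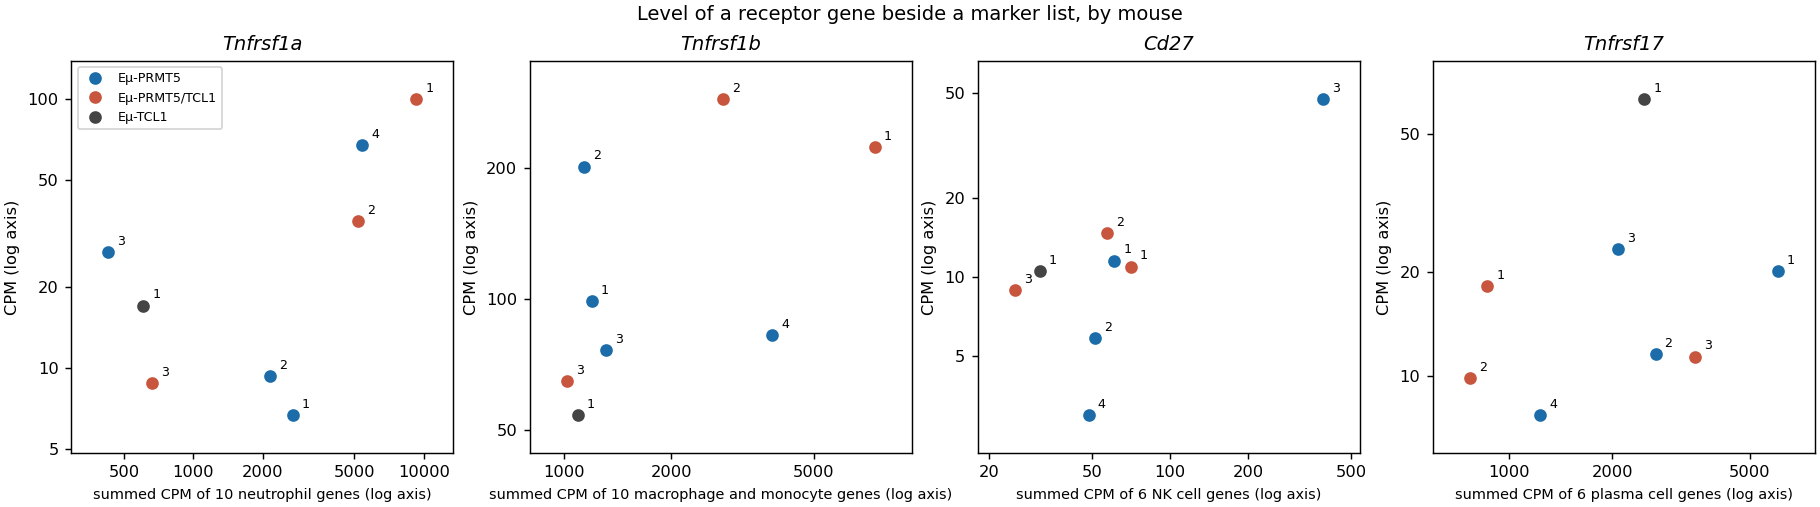
Level of 4 receptor genes (CPM, log axis) beside the summed level of a marker list (CPM, log axis) in each of the 8 mice: Tnfrsf1a beside 10 neutrophil genes, Tnfrsf1b beside 10 macrophage and monocyte genes, Cd27 beside 6 NK cell genes and Tnfrsf17 beside 6 plasma cell genes; colours are genotypes and numbers are replicate numbers. Cd27 (47.6 CPM) and the NK cell genes (389 CPM) are both highest in Eµ-PRMT5 mouse 3, Tnfrsf1a (99.8 CPM) and the neutrophil genes (9270 CPM) are both highest in Eµ-PRMT5/TCL1 mouse 1, and Tnfrsf17 is highest in the Eµ-TCL1 mouse, where the plasma cell genes are in the middle of the range.

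Tnfrsf1b encodes TNF receptor 2, which is found mainly on lymphoid and myeloid cells, and lies on the minus strand of chromosome 4 from 145213463 to 145246870. It measured 98.8, 202, 76.4 and 82.4 CPM for Eµ-PRMT5 mice, 224, 289 and 64.5 CPM for Eµ-PRMT5/TCL1 mice and, for the Eµ-TCL1 mouse, 54.1 CPM. Eµ-PRMT5/TCL1 mice 1 and 2 were the highest, mouse 3 of that genotype was below every Eµ-PRMT5 mouse, while the Eµ-TCL1 mouse was the lowest of the 8, as it was for 14.2% of all tested genes. The means were 115 ± 58.8 CPM (SD, n = 4) and 193 ± 116 CPM (SD, n = 3), a log2 fold change of 0.75 (SE 0.50, adjusted p = 1 in edgeR's quasi-likelihood test). Leaving out Eµ-PRMT5 mouse 2 gave 1.17 (unadjusted p = 0.0388, adjusted p = 0.999 in edgeR's quasi-likelihood test), and leaving out Eµ-PRMT5/TCL1 mouse 3 gave 1.16 (unadjusted p = 0.0269, adjusted p = 1 in the same edgeR test), while leaving out Eµ-PRMT5/TCL1 mouse 2 gave 0.33.

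Against the Eµ-TCL1 mouse, Tnfrsf1b had a log2 fold change of 1.83 in the Eµ-PRMT5/TCL1 mice (SE 0.86, unadjusted p = 0.0539, adjusted p = 0.778 in edgeR's quasi-likelihood test) and of 1.09 in the Eµ-PRMT5 mice (SE 0.80, adjusted p = 0.744 in edgeR's quasi-likelihood test). Eµ-PRMT5/TCL1 mouse 1, with 224 CPM of Tnfrsf1b, also had the highest summed level of macrophage genes, whereas Eµ-PRMT5 mouse 4, with 3834 CPM of those genes, had 82.4 CPM of Tnfrsf1b. Both sums were mostly Lyz2. The part of myeloid cells in the Tnfrsf1b level was not tested.

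TRAF2 and TRAF3, the adaptors that restrain NIK, varied less over the mice than the median tested gene. Traf2 lies on the minus strand of chromosome 2 from 25517982 to 25546940. It measured 159, 183, 84.8 and 105 CPM for Eµ-PRMT5 mice, 123, 126 and 123 CPM for Eµ-PRMT5/TCL1 mice and, for the Eµ-TCL1 mouse, 109 CPM. The Eµ-PRMT5/TCL1 mice were nearly equal and lay inside the range of the Eµ-PRMT5 mice. The means were 133 ± 45.9 CPM (SD, n = 4) and 124 ± 1.61 CPM (SD, n = 3), a log2 fold change of -0.10 (SE 0.34, adjusted p = 1 in edgeR's quasi-likelihood test), with an interval of 2 standard errors from -0.79 to 0.59.

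Traf3 lies on the plus strand of chromosome 12 from 111166370 to 111267153. It measured 50.1, 109, 62.2 and 51.9 CPM for Eµ-PRMT5 mice, 85.9, 117 and 91.7 CPM for Eµ-PRMT5/TCL1 mice and, for the Eµ-TCL1 mouse, 66.5 CPM. The Eµ-PRMT5/TCL1 mice lay above 3 of the Eµ-PRMT5 mice, and Eµ-PRMT5 mouse 2, at 109 CPM, lay among them. The means were 68.3 ± 27.6 CPM (SD, n = 4) and 98.1 ± 16.3 CPM (SD, n = 3), a log2 fold change of 0.52 (SE 0.36, adjusted p = 1 in edgeR's quasi-likelihood test). Without Eµ-PRMT5 mouse 2 it was 0.84, with an unadjusted p of 0.0362 and an adjusted p of 0.999 in edgeR's quasi-likelihood test, and without Eµ-PRMT5/TCL1 mouse 2 it was 0.38.

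Per kilobase of exon, Traf3 was below Traf2 in every mouse, at a ratio of CPM of 0.219, 0.412, 0.509 and 0.344 in the Eµ-PRMT5 mice, 0.484, 0.643 and 0.517 in the Eµ-PRMT5/TCL1 mice and, for the Eµ-TCL1 mouse, 0.424. The lowest ratios were in Eµ-PRMT5 mice, and Eµ-PRMT5 mouse 3 overlapped the Eµ-PRMT5/TCL1 mice.

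Signals of these receptors end on NF-kB, so its DNA consensus was searched for in the promoters, and Traf3 was the 1 member whose window held it. The RefSeq promoter table (GRCm38.p6), with 250 bases before and 50 bases after each start, has a window for 8 of the 10 genes, and for Cd40 and Cd70 none was read. The 10-base NF-kB consensus, searched by name on both strands, was in 8.46% of the 32851 promoters of the table, in 1 of the 8 (Traf3) and in 9 of 42 listed pathway genes. These counts are not alike, because the 8.46% counts each promoter, while a gene with several promoters counts once if any matched. The pathway list was also chosen to include targets, among them Nfkbia and Tnfaip3. In all, 10 motifs were searched with no regard to overlap between them, and each of the other 9 was in 0 to 2 of the 8 promoters. The 60 bases before the RefSeq start of Traf3 are shown beside those of Nfkbia and Tnfaip3, inhibitors that NF-kB induces, with the consensus in capitals; each runs 5′ to 3′ on the strand of its gene, at chr12:111166310-111166369 (plus), chr12:55492648-55492707 (minus) and chr10:19015411-19015470 (minus).
Traf3: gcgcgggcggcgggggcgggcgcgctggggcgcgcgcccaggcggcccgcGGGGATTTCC
Nfkbia: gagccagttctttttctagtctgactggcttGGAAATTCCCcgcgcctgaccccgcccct
Tnfaip3: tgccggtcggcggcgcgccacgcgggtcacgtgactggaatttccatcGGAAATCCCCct

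In Traf3 the match ends at the base before the start. A match is a description of the letters and does not show binding. With the consensus in 1 of 8 members and in 8.46% of all promoters, the members are not set apart by it.

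**Figure D3:**
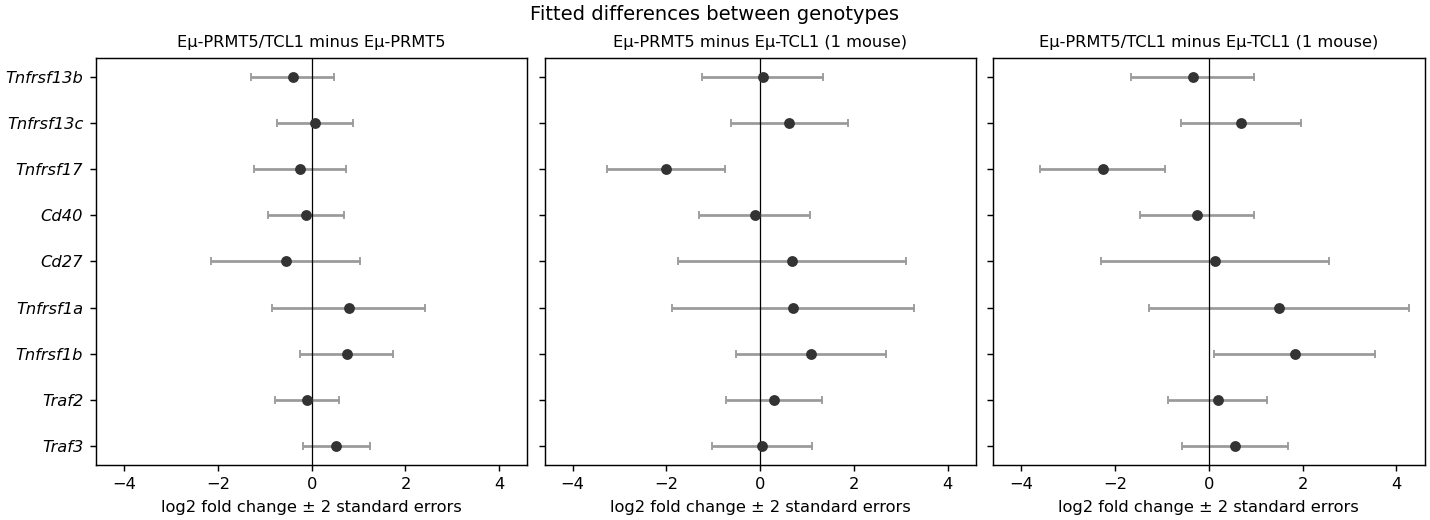
Log2 fold change of the 9 tested genes in each of the 3 comparisons, with bars of 2 standard errors on either side from the edgeR fit. Tnfrsf17 lies lowest in both comparisons with the Eµ-TCL1 mouse (-2.01 and -2.26), and all 9 bars of Eµ-PRMT5/TCL1 against Eµ-PRMT5 cross 0.

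Side by side, the comparison of Eµ-PRMT5/TCL1 with Eµ-PRMT5 mice had 4 of the 9 genes higher and 5 lower in fitted value, with 0 of 9 at an unadjusted p under 0.05 beside 2.17% of all tested genes (0.957% higher and 1.21% lower). The log2 fold changes ran from -0.55 for Cd27 to 0.79 for Tnfrsf1a, and their median was -0.10 beside -0.09 over all tested genes. The groups did not overlap for 0 of the 9 genes, beside 2.95% of all tested genes (1.35% with all Eµ-PRMT5/TCL1 mice above and 1.59% with all below). The standard errors ran from 0.34 for Traf2 to 0.82 for Tnfrsf1a, and the difference was larger than its standard error for 2 of the 9 (Tnfrsf1b and Traf3).

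Against the Eµ-TCL1 mouse, 1 of 9 genes (BCMA) was at an unadjusted p under 0.05 in the Eµ-PRMT5 mice, beside 6.78% of all tested genes (1.96% higher and 4.82% lower), and 1 of 9, again BCMA, in the Eµ-PRMT5/TCL1 mice, beside 6.09% (1.75% higher and 4.33% lower). These shares moved with single libraries and with the samples fitted, to 16.2% for Eµ-PRMT5 without its mouse 3 and to 18.1% for Eµ-PRMT5/TCL1 with only the 2 groups compared. The median log2 fold change of the 9 was 0.29 in the Eµ-PRMT5 mice, beside 0.04 over all tested genes, and 0.19 in the Eµ-PRMT5/TCL1 mice, beside -0.07. TACI differed from the Eµ-TCL1 mouse by 0.05 and -0.35 on the log2 scale, BAFF-R by 0.62 and 0.68, and CD40 by -0.12 and -0.25, with adjusted p between 0.808 and 0.987 in edgeR's quasi-likelihood test. The sign of the TACI and Traf3 values of Eµ-PRMT5 against the Eµ-TCL1 mouse was negative with upper-quartile scaling and with library sizes alone.

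The members differed in how much they varied over the 8 mice. The coefficient of variation of CPM was 24.7% for Traf2, 32.1% for Traf3, 33.5% for BAFF-R, 33.9% for TACI and 34.7% for CD40, all below the median of 43.4% over all tested genes. It was 98.9% for Cd27, 98.4% for Tnfrsf1a, 87.1% for BCMA and 65.1% for Tnfrsf1b. Higher values were found in 4.50% of all tested genes for Cd27, 4.56% for Tnfrsf1a and 8.03% for BCMA, and in 66.5% for CD40, 68.1% for TACI and 68.9% for BAFF-R. Within the replicated groups, BCMA was at 46.2% for Eµ-PRMT5 and 33.8% for Eµ-PRMT5/TCL1, so its value over 8 mice rested largely on the Eµ-TCL1 mouse. TACI was at 19.0% within Eµ-PRMT5 and 62.2% within Eµ-PRMT5/TCL1. The highest mouse had 15.9 times the level of the lowest for Cd27 and 14.9 times for Tnfrsf1a, against 2.16 times for Traf2.

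Compared per kilobase of exon, the mean CPM over the 8 mice was 35.7 for Tnfrsf1b, 31.8 for CD40, 25.3 for BCMA, 24.8 for Traf2, 13.1 for Tnfrsf1a, 10.8 for Traf3 and 6.08 for Cd27, all far below TACI and BAFF-R. The ranges of neighbouring genes in this order overlapped, as for Tnfrsf1b (14.2 to 75.7 CPM per kilobase) and CD40 (16.7 to 50.8), whereas in these libraries the lowest TACI and BAFF-R values lay above the highest value of every other tested member.

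Of 50 further genes of these pathways, 44 were tested and 0 were called in any comparison. They comprised 7 ligands, 9 receptors, 21 signal transducers and 13 targets of the pathway. Among the ligands of the members, APRIL and CD40 ligand had few counts or no value in these B cell preparations. BAFF itself (Tnfsf13b) was at 21.3, 14.4, 33.7 and 17.8 CPM for Eµ-PRMT5 mice and at 22.6 and 17.3 CPM for Eµ-PRMT5/TCL1 mice 1 and 2, with no value in the other libraries. APRIL (Tnfsf13) had 0 to 9 counts per library, and the T cell gene Cd40lg had 10 to 18 counts in the 4 libraries with a value.

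Tnf and lymphotoxin alpha (Lta), the ligands of the TNF receptors, were lowest in the Eµ-TCL1 mouse, as were 14.2% of all tested genes. The other ligand gene tested, Ltb, went the other way. It was highest in that mouse, at 1914 CPM against 356 to 1349 CPM in the others. Its log2 fold change against that mouse was -1.37 (SE 0.66) for Eµ-PRMT5 and -0.95 (SE 0.70) for Eµ-PRMT5/TCL1. Tnf measured 2.64, 6.17, 3.19 and 7.49 CPM for Eµ-PRMT5 mice, 8.53, 13.3 and 9.53 CPM for Eµ-PRMT5/TCL1 mice, and 0.541 CPM from 2 counts in the Eµ-TCL1 mouse. Lta measured 8.52, 12.03, 5.70 and 6.80 CPM, then 4.10, 19.0 and 19.7 CPM, and 0.811 CPM from 3 counts. Between the replicated groups, every Eµ-PRMT5/TCL1 mouse was above every Eµ-PRMT5 mouse for Tnf, as for 1.35% of all tested genes. The log2 fold change of Tnf there was 1.08 (SE 0.55, unadjusted p = 0.0734 in edgeR's quasi-likelihood test). With so few counts in the Eµ-TCL1 mouse, the ratio of the Eµ-PRMT5/TCL1 mean to it was 19.3 for Tnf (exact Poisson 95% interval 5.35 to 160) and 17.6 for Lta (6.02 to 85.3), where the interval covers the counting error of that library alone. The unadjusted p values of these 2 ligands against the Eµ-TCL1 mouse lay between 0.00463 and 0.0198, and the adjusted p between 0.709 and 0.778, in edgeR's quasi-likelihood test.

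Among the other receptors, Tnfrsf11a, which encodes RANK, was highest in the Eµ-TCL1 mouse at 54.1 CPM, against 8.39 to 25.1 CPM for Eµ-PRMT5 mice and 9.37 to 16.6 CPM for Eµ-PRMT5/TCL1 mice. Its log2 fold change was -1.89 (SE 0.64) for Eµ-PRMT5 and -2.19 (SE 0.67) for Eµ-PRMT5/TCL1 against that mouse, with adjusted p of 0.709 and 0.778 in edgeR's quasi-likelihood test. Tnfrsf4, which encodes the T cell costimulator OX40, was at 122 CPM in Eµ-PRMT5/TCL1 mouse 3 and between 2.43 and 28.5 CPM in the others, so its log2 fold change of 4.21 against the Eµ-TCL1 mouse (SE 1.83, adjusted p = 0.778 in edgeR's quasi-likelihood test) rested on 1 library. Of the 7 receptors tested, 1 had an unadjusted p under 0.05 in the Eµ-PRMT5 mice and 2 had one in the Eµ-PRMT5/TCL1 mice, relative to that mouse, beside 6.78% and 6.09% of all tested genes.

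The transducers gave no difference at an unadjusted p under 0.05 in any comparison, 0 of 21 in each, beside 2.17% to 6.78% of all tested genes. Among the targets, Fcer2a, which encodes CD23, a marker of follicular B cells, was at 12.6, 19.3, 38.5 and 1.73 CPM for Eµ-PRMT5 mice, 2.13, 0.858 and 4.92 CPM for Eµ-PRMT5/TCL1 mice and, for the Eµ-TCL1 mouse, 2.70 CPM. It was high in 3 Eµ-PRMT5 mice and low in the other mice, with Eµ-PRMT5 mouse 4 inside the range of the Eµ-PRMT5/TCL1 group. The log2 fold change of Eµ-PRMT5/TCL1 against Eµ-PRMT5 was -2.76 (SE 0.93, unadjusted p = 0.0116, adjusted p = 1 in edgeR's quasi-likelihood test), and it was the 1 pathway gene of 44 at an unadjusted p under 0.05 in that comparison, a share near the 2.17% of all tested genes.

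Bcl2l1, the gene of the survival protein Bcl-xL, was at 94.4 CPM in the Eµ-TCL1 mouse, 23.9 to 41.6 CPM for Eµ-PRMT5 mice and 9.01 to 40.3 CPM for Eµ-PRMT5/TCL1 mice. Its log2 fold changes against the Eµ-TCL1 mouse were -1.48 and -2.07 (SE 0.64 and 0.67), with adjusted p of 0.709 and 0.778 in edgeR's quasi-likelihood test. BCMA, Tnfrsf11a and Bcl2l1 were highest in the same mouse, but all were at an unadjusted p under 0.05 against it, a choice that favours this. The Eµ-TCL1 mouse was the highest for 1 of the 9 members and for 5 of the 44 pathway genes (11.4%). It was the shallowest library and was above the 7 others for 21.3% of all tested genes.

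**Figure D4:**
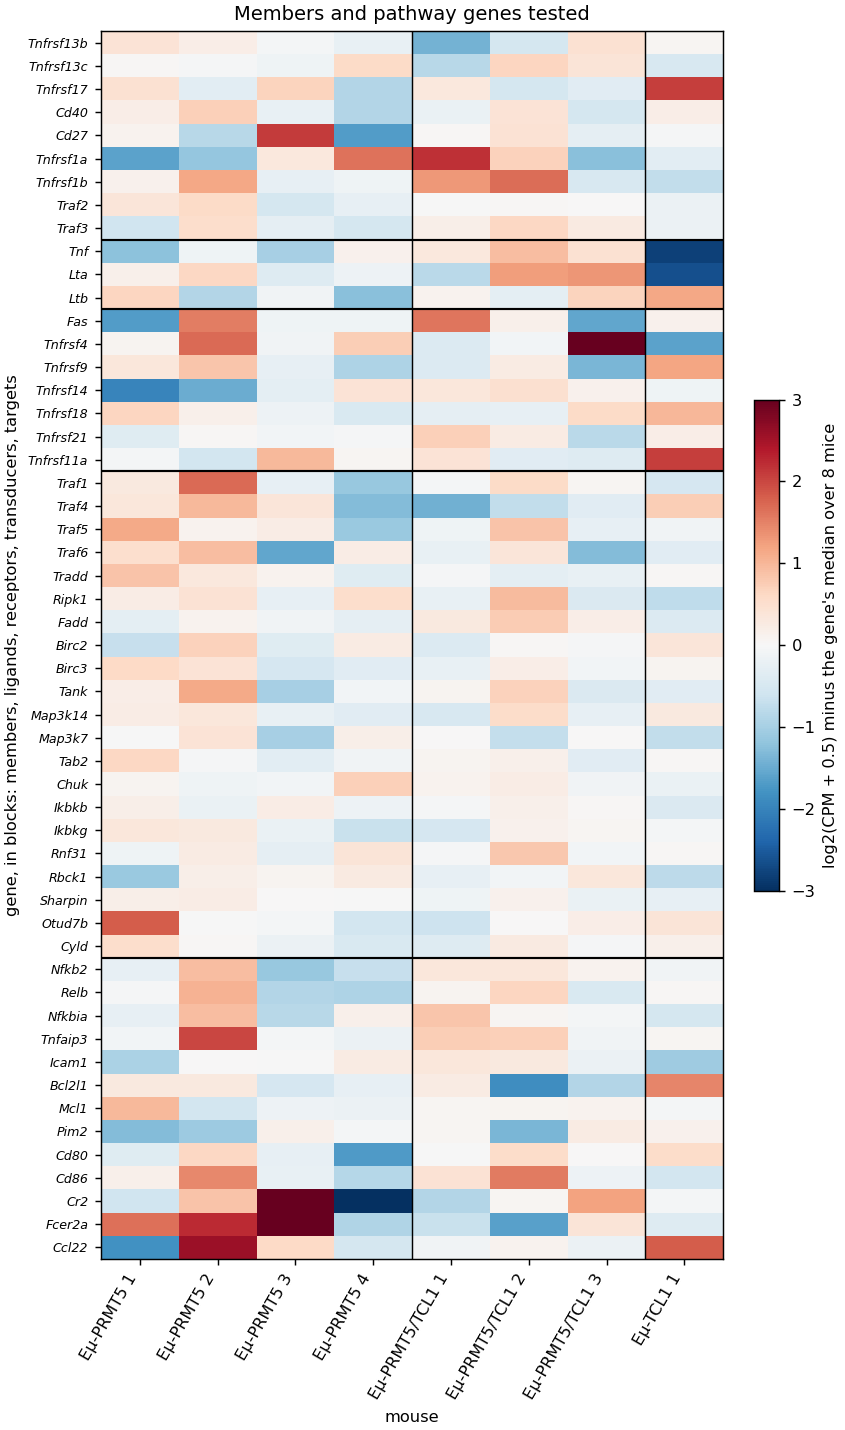
Level of the 9 tested members and the 44 tested pathway genes in each mouse, as log2(CPM + 0.5) minus the median of the gene over the 8 mice, in blocks by role; colours saturate at 3 in either direction. Eµ-PRMT5 mouse 2 has the highest level for 13 of the 44 pathway genes, many of them targets and transducers, and Eµ-PRMT5 mouse 4 the lowest for 12.

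Eµ-PRMT5 mouse 2 held the highest level of more pathway genes than any other mouse. It was the highest of the 8 mice for 13 of the 44 pathway genes (29.5%), beside 8.65% of all tested genes, and for CD40 and Traf2 among the members. The following genes were chosen after these values were seen. Nfkb2, the substrate of the pathway that TRAF2 and TRAF3 restrain, measured 204, 454, 108 and 148 CPM for Eµ-PRMT5 mice, 306, 305 and 260 CPM for Eµ-PRMT5/TCL1 mice and, for the Eµ-TCL1 mouse, 223 CPM. Tnfaip3, which encodes the feedback inhibitor A20, was at 63.5, 269, 64.7 and 59.6 CPM, then at 111, 110 and 61.8 CPM, and at 69.2 CPM. For both genes mouse 2 was the highest of the 8, and the other Eµ-PRMT5 mice were lower than Eµ-PRMT5/TCL1 mice 1 and 2.

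Relb, Traf1 and Nfkbia had their highest level in the same mouse, at 267, 418 and 445 CPM against 67.3 to 201, 57.8 to 189 and 130 to 417 CPM in the other 7. Eµ-PRMT5 mouse 2 was also the mouse with the highest Cd40 (173 CPM) and, within its group, the highest Traf3 (109 CPM) and Tnfrsf1b (202 CPM). With 1 mouse of this kind, and with the sample name that the methods give to a founder, founder status and the other properties of the animal cannot be told apart. Eµ-PRMT5 mouse 4 was the lowest of the 8 for 12 of the 44 genes (27.3%), beside 18.0% of all tested genes. This library has the lowest summed level of B cell markers, with 5 of the 7 at their lowest there.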

How the data were processed

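The authors deposited 1 table of raw counts per gene symbol, without normalization or pooling. Per the methods, cDNA was preamplified from low input and filtered by the CLEAR workflow, whereas the sample labels describe another library kit. The submitters' processing notes name featureCounts, Subread, DESeq2 1.20.0 and GRCm38. The aligner, the annotation and the strand setting are not given in the sources used here, so reads of overlapping antisense genes may be mixed. Preamplified reads carry no stated molecular identifiers, and counting intervals cover counting error only. The matrix holds 36919 empty cells marked NA, whose meaning is not stated and which were kept as missing, and 26 rows named by a date.

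Symbols lacking a value in any library were left out, which kept 14072, and 13173 of them passed the expression filter. edgeR 4.0.16 (R 4.3.3) was run with TMM scaling, 1 model of 3 groups without covariates, the quasi-likelihood test, and Benjamini and Hochberg's adjustment over all tested genes (common biological coefficient of variation 0.483). A call needed an adjusted p under 0.05 and a fold over 4. The standard error is the log2 fold change divided by the square root of F. The code was tested on simulated data. Groups come from the genotype labels, and the 1 Eµ-TCL1 mouse is assumed to vary like the others.

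Missing marker values counted as 0 in summed levels. Gene positions and exon lengths are from GENCODE vM21, and promoters from RefSeq. Python 3.11.15, scipy 1.17.1, pandas 2.3.3 and matplotlib 3.10.9 were used. The members, gene lists and tests were chosen with earlier results of these data known. Named genes are the members, pathway genes at an unadjusted p under 0.05, ligands of members, the other tested ligand Ltb, markers given beside a member, and the 3 genes most correlated with TACI, BAFF-R and CD40. Alternatives were DESeq2 1.42.0, other scalings and filters, NA as 0, only 2 groups, each mouse left out, and a replicate block.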

Additional observations from a re-analysis of the deposited data

How the results depend on the processing

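No member was called under any alternative, and BCMA was lower against the Eµ-TCL1 mouse at an unadjusted p under 0.05 in every one in which that comparison was run, which leaves out the fits of mice 1 to 3. DESeq2 called, over all tested genes, 3 higher and 1 lower for Eµ-PRMT5/TCL1 against Eµ-PRMT5, 4 higher and 14 lower for Eµ-PRMT5 against Eµ-TCL1, and 9 higher and 7 lower for Eµ-PRMT5/TCL1 against Eµ-TCL1, where the quasi-likelihood test called 0. Tnfrsf1b in Eµ-PRMT5/TCL1 against Eµ-TCL1 had an unadjusted p of 0.018 and an adjusted p of 0.578 with DESeq2. Of 648 gene values, 617 kept their direction and 31 reversed. With upper-quartile scaling Tnfrsf13b and Traf3 in Eµ-PRMT5 against Eµ-TCL1 were both -0.11 on the log2 scale, and with library size only they were -0.20 and -0.19. Library size only also gave -0.096 for Cd27 and -0.037 for Traf2 in Eµ-PRMT5/TCL1 against Eµ-TCL1, while moving the median of all genes there from -0.07 to -0.30 (and for Eµ-PRMT5 from 0.04 to -0.21). With NA counted as 0, Cd40 was 0.15 and 0.043 against the Eµ-TCL1 mouse in the Eµ-PRMT5 and Eµ-PRMT5/TCL1 mice. Fcer2a in Eµ-PRMT5/TCL1 against Eµ-TCL1 was 0.052 with DESeq2, 0.26 with NA as 0 and 0.083 with only the groups compared. The cause was not tested.

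With single mice left out, for Eµ-PRMT5/TCL1 against Eµ-PRMT5 the log2 fold change ran from -0.23 to 0.39 for Tnfrsf13c, -0.55 to 0.0077 for Tnfrsf17, -0.42 to 0.18 for Cd40, -0.90 to 0.77 for Cd27, -0.34 to 1.75 for Tnfrsf1a, -0.26 to 0.097 for Traf2, -0.61 to 0.098 for Tnfrsf11a and -1.08 to 2.13 for Tnfrsf4. For Eµ-PRMT5 against Eµ-TCL1 it ran from -0.42 to 0.094 for Cd40, -0.64 to 1.03 for Cd27, -0.26 to 1.15 for Tnfrsf1a and -0.28 to 0.27 for Traf3, and for Eµ-PRMT5/TCL1 against Eµ-TCL1 from -0.084 to 0.29 for Cd27 and -0.86 to 0.38 for Fcer2a. The members whose groups did not overlap numbered 0 to 2 (Traf3 without Eµ-PRMT5 mouse 2, Tnfrsf1b and Tnfrsf13b without Eµ-PRMT5/TCL1 mouse 3), beside 4.91% and 8.96% of all tested genes in those settings. The share of tested genes at an unadjusted p under 0.05 ran over the alternatives from 1.13% to 6.58% for Eµ-PRMT5/TCL1 against Eµ-PRMT5, 3.01% to 16.2% for Eµ-PRMT5 against Eµ-TCL1 and 3.07% to 18.1% for Eµ-PRMT5/TCL1 against Eµ-TCL1.

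Mice of the same replicate number correlated at 0.0213, 0.106 and 0.162 in their deviations, so the number was not taken as a pairing. A replicate block over mice 1 to 3 called 0 members and 0 genes in all. At an unadjusted p under 0.05 it had 495 genes higher and 331 lower, against 374 and 368 for the same mice without it. The single Eµ-TCL1 library, the shallowest, limits every comparison with it, and genes with few counts are limited by depth. Eµ-PRMT5 mouse 1 had a value for 16379 symbols, against 20411 to 21475 in the other libraries. Its missing values thus also limited which genes were tested.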
